A study of Mus musculus with 13 samples.

Results

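The 10 genes described here, Adgre1, Csf1r, Clec4f, Timd4, Cd5l, Marco, Vsig4, Cd163, Folr2 and Mrc1, mark the Kupffer cell, the resident macrophage of the liver sinusoid. They were chosen by name as known resident macrophage genes, with earlier results of these data known. All 10 were found by their Entrez identifiers in the 3 deposited count tables, which share 22246 genes with identical counts. All 10 also passed the filter on low counts in each comparison. Whole livers of 13 mice were sequenced. All mice were C57 males of 3 months, as the labels and the study's methods give it. The 5 no BDL mice were without ligation, and their labels say non treated, with neither a sham operation nor an oligonucleotide named. The 4 miR-Ctrl BDL mice had bile duct ligation (BDL), which blocks the outflow of bile, and received a control oligonucleotide. The 4 anti-miR-873-5p BDL mice had BDL and received a hairpin inhibitor of the microRNA miR-873-5p. Each oligonucleotide went into the tail vein at 60 µg per mouse on days 3 and 5 after ligation, and the livers were collected on day 7. Livers of both BDL groups are called miR-Ctrl livers and anti-miR-873-5p livers from here on. The no BDL mice thus lacked the operation as well as any injection, and the 2 cannot be told apart in comparisons with them. The table that sets both BDL groups against each other holds 3 mice a group, namely miR-Ctrl mice 1, 2 and 4 with anti-miR-873-5p mice 1, 3 and 4, while the tables against no BDL hold all 4. The count tables hold from 12185333 to 19689037 reads a mouse. All 10 genes had reads in every mouse, the fewest being 18 on Timd4.

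Kupffer cells sit inside the sinusoids and clear bacteria, dying cells, aged red cells and complement-coated particles from portal blood. They are seeded before birth and renew themselves locally under colony-stimulating factor 1 (CSF1). Signals from stellate and endothelial cells, among them Notch and bone morphogenetic protein ligands, maintain their identity together with the transcription factors PU.1, SPIC and LXR alpha. When resident cells are lost, recruited monocytes can take up the same genes with time, Clec4f early and Timd4 late. In cholestasis the liver is known to gain monocyte-derived macrophages as well. In whole-liver RNA a change in the number of Kupffer cells and a change in RNA per cell cannot be told apart.

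On GRCm38, with Entrez identifiers in parentheses, Adgre1 (13733) at chr17:57358581-57483529 and Csf1r (12978) are general macrophage genes. The markers of resident identity are Clec4f (51811) at chr6:83644542-83656116, Timd4 (276891) at chr11:46810786-46844333 and Cd5l (11801) at chr3:87357881-87371074. The receptors for particles and ligands are Marco (17167) at chr1:120474538-120505024, Vsig4 (278180) at chrX:96247201-96293438, Cd163 (93671) at chr6:124304636-124330529, Folr2 (14276) at chr7:101839988-101857190 and Mrc1 (17533) at chr2:14229414-14332023.

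The antagonised microRNA is shown with its seed, bases 2 to 8, in capitals. RefSeq lists the mouse form as mmu-miR-873a-5p, on chr4:36668556-36668576 of GRCm38.p6, minus strand.
mmu-miR-873a-5p: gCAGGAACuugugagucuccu
The reverse complement of the seed, GTTCCTG, was looked for in the 3′ UTR of 1 GENCODE M21 transcript for each of the 10 genes. It occurred in 1 of the 10, Folr2, against 14.1% of 21005 protein-coding genes. The Folr2 match lies at bases 112 to 118 of the UTR, and the matching letters are in capitals.
Folr2 3′ UTR: tctgtcatccaGTTCCTGatccatgttgg
A match of letters is a description only, and nothing was measured here about binding of the microRNA.

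RefSeq promoter windows, from 250 bases before to 50 after a start site, matched 8 of the 10 genes and gave 9 windows, 2 of them for Folr2. Both strands were searched for short letters that transcription factors of Kupffer cells are known to prefer. The MAF half-site TGCTGA was in 6 of 9 windows, against 19.5% of 32851 RefSeq windows. The purine box GAGGAA of PU.1 was in 4 of 9, against 28.3%. The RBPJ core TGGGAA, which is read by the Notch pathway, was in 2 of 9 (25.6% of all windows), the nuclear receptor half-site AGGTCA in 2 of 9 (16.3%) and the TATAAA box in 0 of 9 (13.6%). None of the matches in these windows overlapped. The 250 bases before the start are printed for 3 genes whose levels are compared below, Clec4f and Timd4 as markers of resident identity and Marco as the gene with the largest change. Capitals mark every match of any of these motifs on either strand, and each sequence runs toward its gene.
Clec4f (chr6:83656117-83656366, minus strand): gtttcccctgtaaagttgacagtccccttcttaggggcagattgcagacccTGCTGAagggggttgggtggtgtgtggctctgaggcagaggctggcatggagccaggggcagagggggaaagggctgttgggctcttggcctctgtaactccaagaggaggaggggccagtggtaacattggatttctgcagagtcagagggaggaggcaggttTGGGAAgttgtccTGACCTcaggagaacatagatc
Timd4 (chr11:46810549-46810798, plus strand): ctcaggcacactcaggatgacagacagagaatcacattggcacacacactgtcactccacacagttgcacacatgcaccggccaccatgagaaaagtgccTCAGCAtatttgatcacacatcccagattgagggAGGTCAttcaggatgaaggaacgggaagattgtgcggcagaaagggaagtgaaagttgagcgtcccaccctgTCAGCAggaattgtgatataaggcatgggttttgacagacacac
Marco (chr1:120505025-120505274, minus strand): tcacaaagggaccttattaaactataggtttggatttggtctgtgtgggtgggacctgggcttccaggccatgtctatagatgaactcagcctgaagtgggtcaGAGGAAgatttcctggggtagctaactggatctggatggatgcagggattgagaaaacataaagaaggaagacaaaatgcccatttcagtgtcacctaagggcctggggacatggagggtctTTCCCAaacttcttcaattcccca
Clec4f holds a MAF half-site, an RBPJ core and a nuclear receptor half-site, Timd4 holds a pair of MAF half-sites and a nuclear receptor half-site, and Marco holds a purine box and an RBPJ core.

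Levels are given as normalized counts, that is CPM of libraries scaled by the TMM factors of edgeR over all 13 mice. Per kilobase of exon, the level of Cd5l was the highest of the 10 in every group, with means of 43.2 in no BDL, 171 in miR-Ctrl livers and 115 in anti-miR-873-5p livers. In no BDL livers Clec4f followed with 33.5 normalized counts per kilobase, then Vsig4 with 13.4, Marco with 8.36, Csf1r with 7.56, Folr2 with 6.43, Adgre1 with 3.57, Mrc1 with 3.26, Timd4 with 2.74 and Cd163 with 1.44. Each neighbouring pair in that order, Cd5l and Clec4f included, differed by less than the SD between mice of the higher gene. Marco moved from the fourth place in no BDL to the second in miR-Ctrl livers, at 122 normalized counts per kilobase, and in anti-miR-873-5p livers its 54.2 lay beside 53.9 for Clec4f.

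Before the comparisons, 3 libraries have to be named. No BDL mouse 5 had the highest level of all 10 genes in its group, with a median of 4.12 times the median of the other 4 mice over the 10 genes and 11.6 times for Marco. In the same mouse the summed level of 14 pan-macrophage genes was 3.59 times that of the others and that of 7 hepatocyte genes 0.867 times. The BDL mice absent from the table of both BDL groups are mouse 3 of miR-Ctrl and mouse 2 of anti-miR-873-5p. MiR-Ctrl mouse 3 had 0.228 times the Clec4f level and 0.259 times the Folr2 level of the other 3 mice of its group, but 1.63 times their Marco level and 1.26 times their Cd163 level, with the other 6 genes between 0.378 and 0.574 times. Anti-miR-873-5p mouse 2 had 0.241 times the Folr2 level, 0.249 times the Adgre1 level and 0.338 times the Cd5l level of the other 3, but 2.56 times their Cd163 level and 2.14 times their Marco level. The study's supplement states that any outliers present were filtered, and names no mouse. The authors named the deposited comparison of both BDL groups as one without outliers. The counts of the 10 genes against no BDL are therefore also given without these libraries.

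**Figure D1:**
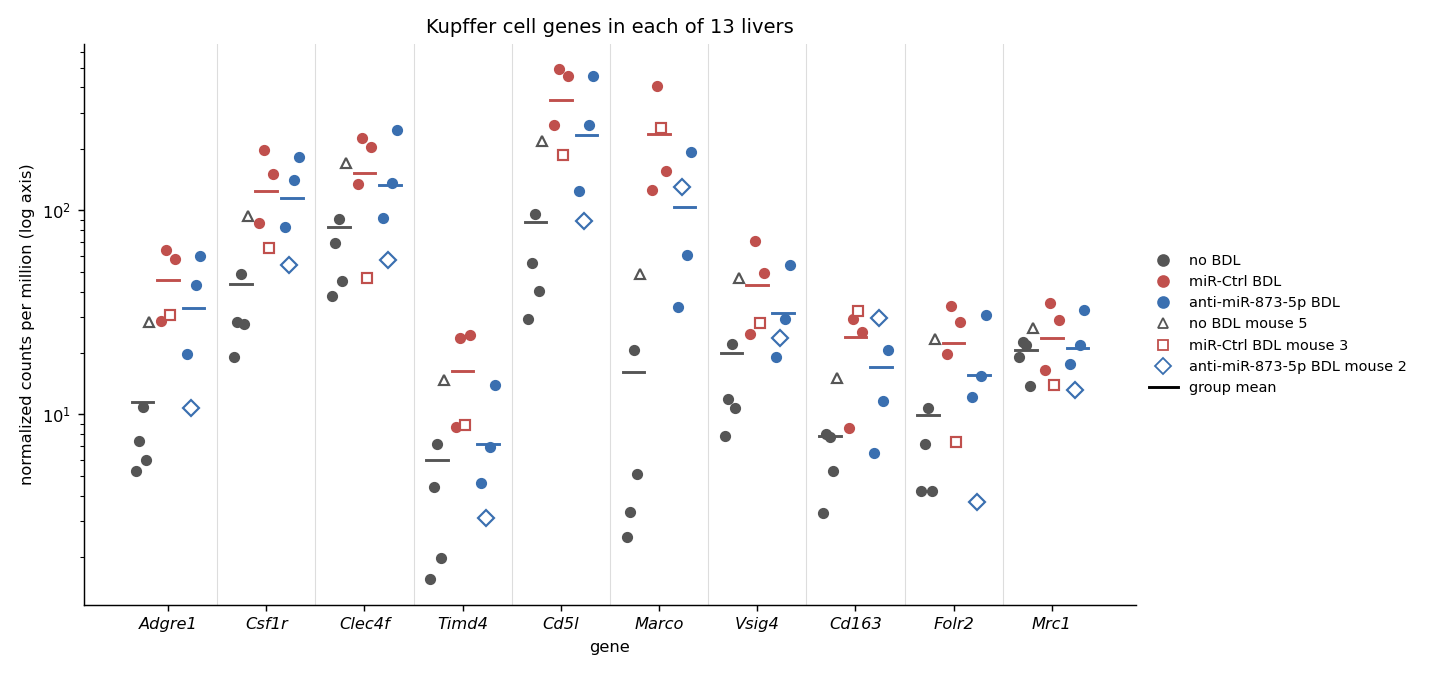
Normalized counts (CPM, log axis) of the 10 Kupffer cell genes in each of the 13 livers, with 1 point per mouse, horizontal lines for group means and open symbols for no BDL mouse 5, miR-Ctrl BDL mouse 3 and anti-miR-873-5p BDL mouse 2. No BDL mouse 5 lies above the other no BDL mice for every gene, and Marco spans 2.51 to 407.5 while Mrc1 stays between 13.1 and 35.1.

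In miR-Ctrl BDL against no BDL, a contrast of ligation together with the control oligonucleotide against neither, 5 of the 10 genes rose and 0 fell. They were Marco, Cd5l, Adgre1, Cd163 and Csf1r, with log2 fold changes from 1.54 to 3.89. The background was high in this comparison, since 19.1% of the 13072 genes tested were past the adjusted p threshold of 0.05 as higher and 16.6% as lower. All 10 log2 fold changes were positive, with a median of 1.51 against -0.01 over all genes tested. In 2 of the 10, Adgre1 and Marco, every miR-Ctrl BDL mouse lay above every no BDL mouse, as for 14.8% of all genes tested.

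Csf1r, the receptor for CSF1 on which macrophages depend for survival, had 19.2, 28.4, 48.8, 27.7 and 94.3 normalized counts in no BDL mice 1 to 5 and 86.5, 197, 65.2 and 150.0 in miR-Ctrl mice 1 to 4. No BDL mouse 5 lay above miR-Ctrl mice 1 and 3, so the groups overlapped. The log2 fold change of Csf1r was 1.54 ± 0.48 (SE, adjusted p = 0.0316). Here and below the adjusted p is that of the quasi-likelihood test of edgeR after Benjamini-Hochberg adjustment, unless another tool is named.

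Adgre1 encodes F4/80, the surface antigen most used to stain mouse macrophages. It had 5.27, 7.44, 10.8, 6.0 and 28.2 normalized counts in no BDL mice 1 to 5 and 28.6, 64.3, 30.8 and 58.0 in miR-Ctrl mice 1 to 4. The groups were apart only by the narrow gap between no BDL mouse 5 and miR-Ctrl mouse 1. The log2 fold change of Adgre1 was 2.00 ± 0.50 (SE, adjusted p = 0.0117).

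Marco, a scavenger receptor that binds bacteria and particles, had 2.51, 3.34, 20.6, 5.10 and 48.9 normalized counts in no BDL and 126, 407.5, 253 and 155.5 in miR-Ctrl livers. The lowest miR-Ctrl mouse was well above the highest no BDL mouse. Its log2 fold change of 3.89 was the largest of the 10 (standard error 0.86, 95% interval 1.97 to 5.82, adjusted p = 0.00682).

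Cd5l, a secreted protein of resident macrophages that takes part in lipid handling and cell clearance, had 29.2, 55.5, 95.8, 40.0 and 219 normalized counts in no BDL and 262, 490.1, 187 and 455 in miR-Ctrl livers. Its groups overlapped through no BDL mouse 5 and miR-Ctrl mouse 3, and the log2 fold change was 2.01 ± 0.57 (SE, adjusted p = 0.0210). Cd163, the receptor that takes up haemoglobin bound to haptoglobin, averaged 7.88 ± 4.48 (SD, n = 5) in no BDL and 23.9 ± 10.5 (SD, n = 4) in miR-Ctrl livers. The log2 fold change of Cd163 was 1.61 ± 0.45 (SE, adjusted p = 0.0197). Its groups overlapped only through no BDL mouse 5, at 15.1 normalized counts, and miR-Ctrl mouse 1, at 8.61.

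Of the 3 markers of resident identity, Cd5l rose, as given above, while Clec4f and Timd4 were not past the threshold. Clec4f, a lectin confined to Kupffer cells in the mouse, had 38.1, 69.3, 90.9, 45.2 and 171 normalized counts in no BDL and 135, 225, 46.7 and 205 in miR-Ctrl livers. MiR-Ctrl mouse 3 lay among the lowest no BDL mice and no BDL mouse 5 among the BDL mice. The log2 fold change of Clec4f was 0.91 ± 0.52 (SE, 95% interval -0.23 to 2.06, adjusted p = 0.195). Timd4, a receptor for phosphatidylserine on dying cells, had 1.56, 4.39, 7.13, 1.97 and 14.7 normalized counts in no BDL and 8.67, 23.6, 8.92 and 24.4 in miR-Ctrl livers. Its log2 fold change was 1.48 ± 0.62 (SE, adjusted p = 0.0884), with overlap through no BDL mouse 5.

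The complement receptor gene Vsig4 averaged 19.9 ± 16.0 (SD, n = 5) in no BDL and 43.2 ± 21.4 (SD, n = 4) in miR-Ctrl livers, a log2 fold change of 1.14 ± 0.52 (SE, adjusted p = 0.115). Folr2, which encodes folate receptor beta, averaged 9.94 ± 7.98 and 22.3 ± 11.5, with a log2 fold change of 1.19 ± 0.56 (SE, adjusted p = 0.124). Folr2 shares exon bases with the gene Gm10602 on the opposite strand, and Csf1r with Hmgxb3 on the opposite strand, so reads there cannot be assigned with certainty from an unstranded kit. Mrc1, the mannose receptor gene, is also expressed by sinusoidal endothelial cells. It averaged 20.8 ± 4.74 (SD, n = 5) in no BDL and 23.7 ± 10.1 (SD, n = 4) in miR-Ctrl livers, and its log2 fold change was the smallest of the 10, 0.22 ± 0.29 (SE, 95% interval -0.42 to 0.86, adjusted p = 0.591).

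All 10 signs stayed positive under the 3 other scalings tried, but single mice decided several calls. The number of genes that rose was 9 without no BDL mouse 5, 2 without miR-Ctrl mouse 2, 3 without miR-Ctrl mouse 4, 3 without no BDL mouse 2, 7 without miR-Ctrl mouse 3, and 9 without both no BDL mouse 5 and miR-Ctrl mouse 3. Over all genes tested, 2603 of 13010 were higher without no BDL mouse 5, 2070 of 13297 without miR-Ctrl mouse 2 and 2119 of 13332 without miR-Ctrl mouse 4. The same count was 2112 of 13026 without no BDL mouse 2, 2999 of 13509 without miR-Ctrl mouse 3 and 3156 of 13349 without both mice. Without both mice the log2 fold change was 1.65 for Clec4f (adjusted p = 0.00201) and 2.35 for Timd4 (adjusted p = 0.00509). Mrc1 alone stayed short of the threshold there at 0.50 (adjusted p = 0.140). No BDL mouse 5 was chosen for that fit by its high levels of these same genes. The fit thus shows dependence on single mice and is no test of a rise.

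Ligation together with the inhibitor was set against neither in anti-miR-873-5p BDL versus no BDL. Here Marco was the 1 gene of the 10 that rose and 0 fell. The background was 13.1% of 13130 genes tested as higher and 8.44% as lower. The log2 fold changes of all 10 were positive, with a median of 0.92 against -0.01 over all genes tested, and the groups overlapped for all 10, against 10.1% of genes tested that did not overlap and were higher. This comparison and the one before share the same no BDL mice.

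Marco had 33.6, 129.5, 60.5 and 194 normalized counts in anti-miR-873-5p mice 1 to 4, of which mouse 1 lay below no BDL mouse 5. The log2 fold change of Marco was 2.71 ± 0.87 (SE, 95% interval 0.78 to 4.65, adjusted p = 0.0499), just inside the threshold. Csf1r had 82.6, 53.7, 142 and 182 normalized counts, with a log2 fold change of 1.43 ± 0.49 (SE, adjusted p = 0.0647). Adgre1 had 19.8, 10.7, 43.0 and 59.4 normalized counts, with a log2 fold change of 1.56 ± 0.59 (SE, adjusted p = 0.0875). For Csf1r and Adgre1 anti-miR-873-5p mouse 2 was the lowest of its group, and mice 1 and 2 both lay inside the no BDL range.

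Clec4f had 92.1, 56.8, 136 and 248 normalized counts in anti-miR-873-5p livers, with a log2 fold change of 0.71 ± 0.51 (SE, adjusted p = 0.343). Timd4 had 4.63, 3.11, 6.94 and 13.9, all below no BDL mouse 5, with a log2 fold change of 0.30 ± 0.65 (SE, 95% interval -1.14 to 1.74, adjusted p = 0.776). Cd5l had 125, 88.8, 262 and 457, with a log2 fold change of 1.44 ± 0.64 (SE, adjusted p = 0.137). The 4 remaining genes had log2 fold changes of 1.13 for Cd163 (adjusted p = 0.120), 0.69 for Vsig4 (adjusted p = 0.370), 0.68 for Folr2 (adjusted p = 0.468) and 0.06 for Mrc1 (adjusted p = 0.890).

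The call for Marco was lost, leaving 0 genes, without any 1 of no BDL mice 1 to 4 or anti-miR-873-5p mice 3 and 4, and also with DESeq2's size factors. Without no BDL mouse 5 the number that rose was 6, without anti-miR-873-5p mouse 1 or mouse 2 it was 2, and without both no BDL mouse 5 and anti-miR-873-5p mouse 2 it was 7. Over all genes tested, 1889 of 13031 were higher without no BDL mouse 5 and 2748 of 13446 without both mice. Without anti-miR-873-5p mouse 1 it was 1851 of 13419, and without mouse 2 it was 2500 of 13597. No BDL mouse 5 was chosen for the fit without both mice by its levels of these genes, so that fit is no test of a rise.

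**Figure D2:**
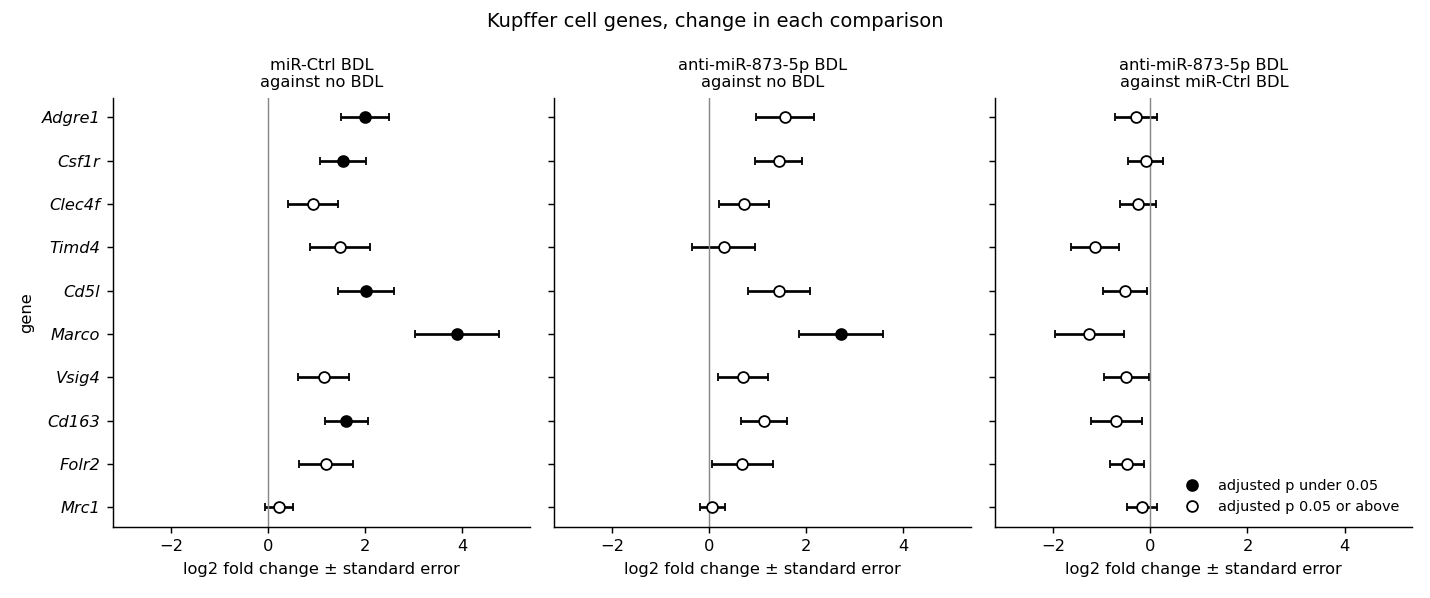
Log2 fold change with its standard error (horizontal bars) of the 10 Kupffer cell genes in the 3 comparisons, with filled points where the quasi-likelihood test of edgeR gave an adjusted p under 0.05. The left panel has 5 filled points, the middle panel 1 (Marco, 2.71) and the right panel 0, and there all 10 points lie below 0.

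Anti-miR-873-5p BDL versus miR-Ctrl BDL asks what the inhibitor did in ligated livers. None of the 10 genes was past the threshold, as was none of the 13746 genes tested (0.0%), where 863 genes had an unadjusted p under 0.05 and the smallest adjusted p was 0.757. DESeq2's Wald test called 30 genes, and 0 of the 10 were among them. All 10 log2 fold changes were negative in this table of 3 mice a group, with a median of -0.49 against 0.01 over all genes tested, but the groups overlapped for each gene, while 11.4% of all genes tested did not overlap in either direction. That median depended on single mice, at -0.99 without anti-miR-873-5p mouse 4, -0.21 without miR-Ctrl mouse 2 and -0.20 without anti-miR-873-5p mouse 1.

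Timd4 was the gene nearest to a difference, at 8.67, 23.6 and 24.4 normalized counts in miR-Ctrl mice 1, 2 and 4 and 4.63, 6.94 and 13.9 in anti-miR-873-5p mice 1, 3 and 4. Of the inhibitor mice, mouse 4 lay inside the miR-Ctrl range. The log2 fold change of Timd4 was -1.15 ± 0.50 (SE, 95% interval -2.31 to 0.02, unadjusted p = 0.0533, adjusted p = 0.775). Marco averaged 230 ± 155 (SD, n = 3) in miR-Ctrl livers and 96.0 ± 85.8 (SD, n = 3) in anti-miR-873-5p livers, a log2 fold change of -1.26 ± 0.71 (SE, 95% interval -2.93 to 0.41, adjusted p = 0.802). Clec4f averaged 188.5 ± 47.6 and 159 ± 80.4 (SD, n = 3 each), with a log2 fold change of -0.25 and a 95% interval from -1.12 to 0.61 (adjusted p = 0.924). Csf1r averaged 145 ± 55.6 and 135 ± 49.9 (SD, n = 3 each), with a log2 fold change of -0.10 and a 95% interval from -0.96 to 0.76 (adjusted p = 0.970).

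The other 6 log2 fold changes ran from -0.70 for Cd163 to -0.17 for Mrc1. The signs for Adgre1, Clec4f, Csf1r and Mrc1 turned positive in some fits that left out 1 mouse, with values up to 0.19. In these fits Marco ran from -2.29 to -0.56, Timd4 from -1.705 to -0.86 and Cd163 from -1.225 to -0.39. Cd5l ran from -1.06 to -0.17, Vsig4 from -0.997 to -0.115 and Folr2 from -0.98 to -0.24.

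Across the 13 livers the 10 genes varied together to differing degrees. Over the 45 pairs of genes, the Pearson correlation of log2 normalized counts had a median of 0.860, from 0.266 for Cd163 with Mrc1 to 0.987 for Adgre1 with Cd5l. With each group centred on its own mean the median was 0.838, from 0.162 for Cd163 with Folr2 to 0.978 for Cd5l with Csf1r. These points share libraries and their scaling, and the correlations are given as descriptions. Of 12974 other genes, those most like Clec4f over the 13 mice were Lilra5 (0.966), Sdc3 (0.956), Cd86 (0.955), Siglec1 (0.953) and Lair1 (0.951). Those most like Csf1r were Cd300c2 (0.991), Slc7a8 (0.986), C130050O18Rik (0.982), Laptm5 (0.982) and P2ry12 (0.980).

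The 10 genes were also set against macrophage RNA as a whole, as a gene's normalized counts per 100 normalized counts summed over 14 pan-macrophage genes that resident and recruited macrophages share. All 14 pan-macrophage genes rose in miR-Ctrl livers (9 without miR-Ctrl mouse 2), with a median log2 fold change of 1.92, while with the inhibitor 7 of 14 rose, at a median of 1.64. The background was 19.1% and 13.1% of all genes higher. That 7 was 2 without anti-miR-873-5p mouse 3 or 4, 3 without any 1 of no BDL mice 1 to 4, 12 without anti-miR-873-5p mouse 2 and 14 without no BDL mouse 5. Their sum was 183, 246, 376, 221 and 838 normalized counts in no BDL mice 1 to 5, 1236, 2049, 1790.0 and 1558 in miR-Ctrl mice 1 to 4, and 738.5, 770.0, 1380.0 and 1815 in anti-miR-873-5p mice 1 to 4. Mpeg1, the gene of a pore-forming protein of phagocytes, was the most abundant by the mean over all 13 mice, although Cd14 with 340.0 ± 459 (SD, n = 4) normalized counts lay above the 278 ± 123 (SD, n = 4) of Mpeg1 in miR-Ctrl livers, and Lyz2 with 211 lay above the 197 of Mpeg1 in anti-miR-873-5p livers (Lyz2 was chosen after its values were seen). The largest changes were those of the lipopolysaccharide co-receptor gene Cd14 (6.33 on the log2 scale, adjusted p = 0.00155) and the Fc receptor gene Fcgr1 (2.35, adjusted p = 0.00640) in miR-Ctrl livers. The size of the Cd14 change rests in part on miR-Ctrl mouse 3, at 1025 normalized counts against 78.6, 175 and 81.1 in mice 1, 2 and 4.

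On this scale a low value is common: 76.0% of the 12375 tested genes with a level in all 13 mice were lower in miR-Ctrl livers than in no BDL without overlap, and 0.485% were higher. In anti-miR-873-5p livers 17.0% of 12393 genes were lower without overlap. Relative to the pan-macrophage genes, Clec4f stood at 20.9, 28.2, 24.2, 20.5 and 20.4 per 100 in no BDL mice 1 to 5. It stood at 10.9, 11, 2.61 and 13.2 in miR-Ctrl mice 1 to 4 and at 12.5, 7.38, 9.83 and 13.7 in anti-miR-873-5p mice 1 to 4. Every BDL mouse was below every no BDL mouse, no BDL mouse 5 included. Mrc1 stood between 3.16 and 10.5 per 100 in no BDL, between 0.778 and 1.87 in miR-Ctrl livers and between 1.58 and 2.38 in anti-miR-873-5p livers, also without overlap. Vsig4 stood between 4.31 and 5.88, between 1.57 and 3.46 and between 2.12 and 3.08 in the same groups, without overlap.

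Marco differed the other way, between 1.36 and 5.83 per 100 in no BDL and between 9.99 and 19.9 in miR-Ctrl livers, without overlap, and between 4.39 and 16.8 in anti-miR-873-5p livers, with overlap. Adgre1 and Cd5l overlapped between no BDL and both BDL groups. In all, 6 of the 10 genes were lower (76.0% of all genes) and 1 higher (0.485%) without overlap in miR-Ctrl livers, and 5 were lower (17.0%) in anti-miR-873-5p livers. The 6 of 10 thus lay below the share of all genes. Cd14 had 1025 normalized counts in miR-Ctrl mouse 3 and between 78.6 and 175 in the other 3 mice of that group. With Cd14 left out of the sum, a choice made after its values were seen, 4 genes were lower (36.7% of all genes) and 1 higher (0.727%) without overlap in miR-Ctrl livers, as Cd163 and Folr2 then overlapped, and 5 were lower (12.2%) in anti-miR-873-5p livers. These ratios were not tested, and they divide by genes that recruited cells also express.

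**Figure D3:**
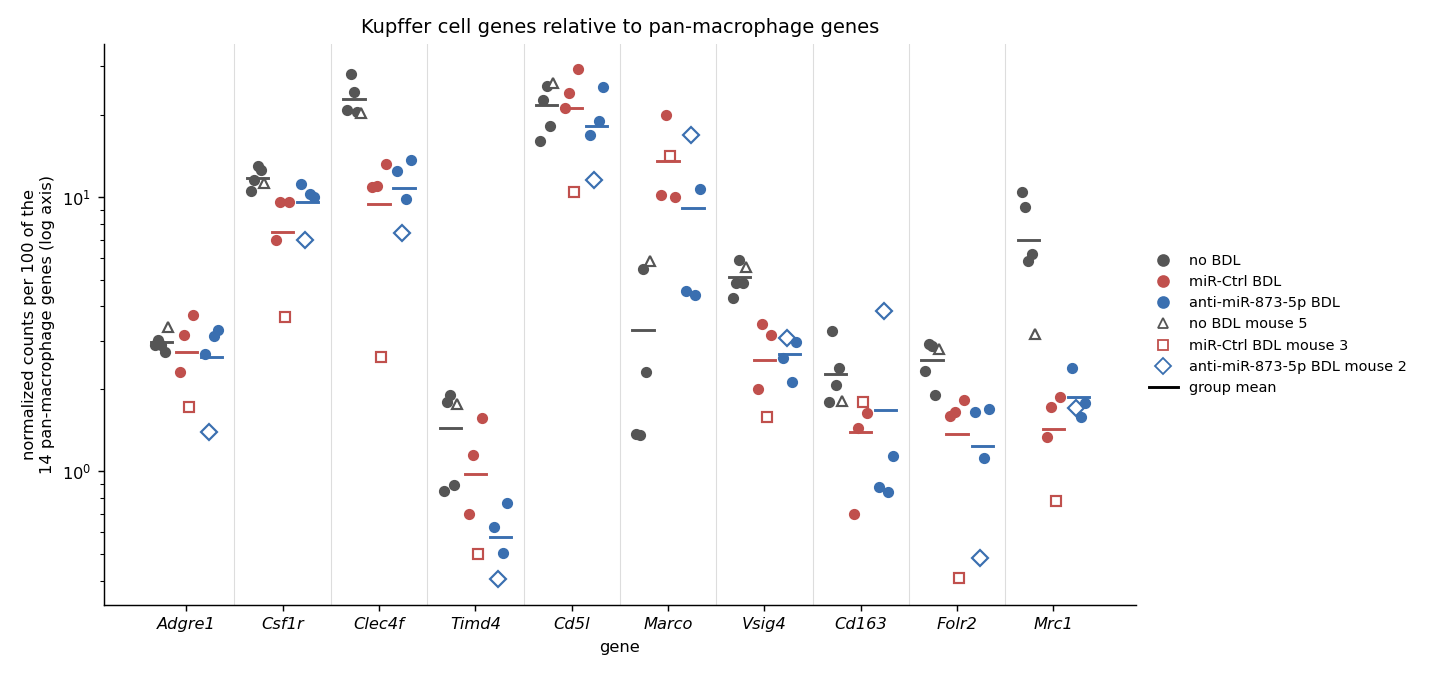
Normalized counts of each Kupffer cell gene per 100 normalized counts summed over 14 pan-macrophage genes (log axis), with 1 point per mouse, horizontal lines for group means and the same open symbols as in the plot of levels. Clec4f, Vsig4 and Mrc1 of all 8 BDL mice lie below the 5 no BDL mice, and Marco of the 4 miR-Ctrl BDL mice lies above them.

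Of 15 further Kupffer cell identity genes, 4 rose and 2 fell in miR-Ctrl livers, with a median log2 fold change of 0.80. Both counts lie near the background of 19.1% higher and 16.6% lower over all genes tested. Fabp7, a fatty acid binding protein gene, rose by 2.69 (adjusted p = 0.00210), Spic, a transcription factor gene of iron-recycling macrophages, by 2.19 (adjusted p = 0.00872), Il18bp, which encodes a secreted inhibitor of interleukin-18, by 1.91 (adjusted p = 0.00531) and Slc11a1, a metal transporter gene of the phagosome, by 1.77 (adjusted p = 0.0101) on the log2 scale. Nr1h3, which encodes LXR alpha and is also expressed in hepatocytes, fell by 0.35 (adjusted p = 0.0385) and Hpgd, a prostaglandin-degrading enzyme gene, by 1.07 (adjusted p = 0.0397). The sign for Nr1h3 turned to 0.47 with library size alone as the scaling, and at most 1 of these 2 falls was called without any 1 mouse. Siglec1, the gene of the sialic acid receptor CD169, had a log2 fold change of 1.57 (adjusted p = 0.0543), the iron exporter gene Slc40a1 one of 0.45 (adjusted p = 0.228) and Cd207, the lectin langerin gene, one of 0.32 (adjusted p = 0.636). The number that rose was 8 without no BDL mouse 5 and 8 without miR-Ctrl mouse 3. In anti-miR-873-5p livers 2 of the 15 rose, Fabp7 by 2.03 (adjusted p = 0.0172) and Spic by 1.2 (adjusted p = 0.0401), and 0 fell, with a background of 13.1% higher and 8.44% lower. That count of 2 was 0 without anti-miR-873-5p mouse 3 or 4, 1 without no BDL mouse 1, 2 or 4, and 5 without no BDL mouse 5 or anti-miR-873-5p mouse 2.

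Of 8 genes of the CSF1 axis and macrophage transcription factors, 4 rose and 0 fell in miR-Ctrl livers, against a background of 19.1% higher and 16.6% lower. Both ligands of the receptor encoded by Csf1r were among them. Csf1 rose from 11.6 ± 2.62 (SD, n = 5) to 30.5 ± 9.73 (SD, n = 4) normalized counts, a log2 fold change of 1.43 ± 0.25 (SE, adjusted p = 0.00215), and Il34 rose by 1.31 (adjusted p = 0.0290). Spi1, the gene of PU.1, rose by 1.99 (adjusted p = 0.00750) and Runx1, a transcription factor gene of blood cell formation, by 3.90 (adjusted p = 0.00332). Runx1 averaged 0.567 ± 0.382 (SD, n = 5) normalized counts in no BDL and 8.73 ± 9.42 (SD, n = 4) in miR-Ctrl livers, a spread as large as the mean. Irf8, a transcription factor gene of the monocyte lineage, had a log2 fold change of 1.39 (adjusted p = 0.0595). In anti-miR-873-5p livers, against the same no BDL mice, 4 of 8 also rose (background 13.1%), namely Csf1 by 1.52 (adjusted p = 0.0198), Il34 by 1.08 (adjusted p = 0.0252), Spi1 by 1.6 (adjusted p = 0.0455) and Runx1 by 3.30 (adjusted p = 0.00684), but only 1 without no BDL mouse 1, anti-miR-873-5p mouse 3 or anti-miR-873-5p mouse 4, and 2 without no BDL mouse 2, 3 or 4.

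Of 8 genes of signals from the Kupffer cell niche, 7 were tested, since Bmp10 was too low. In miR-Ctrl livers 2 rose, the receptor gene Acvrl1 by 0.92 (adjusted p = 0.0286) and its target gene Id1 by 1.71 (adjusted p = 0.0300), a count near the background of 19.1% higher. The ligand gene Gdf2 (BMP9) had a log2 fold change of 0.01 (adjusted p = 0.992), and the Notch ligand gene Dll4 one of -1.22 (adjusted p = 0.0595). Leaving out no BDL mouse 3 or 4 took that count to 0, and it stayed at 2 only without miR-Ctrl mouse 1. In anti-miR-873-5p livers 0 of 7 were past the threshold, but 2 rose without anti-miR-873-5p mouse 2 and 1 without no BDL mouse 1. Against miR-Ctrl BDL, 0 of the 15 identity genes, 0 of the 8 CSF1 axis genes and 0 of the 7 niche genes were past the threshold with the inhibitor.

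Markers of other cells moved in the same livers. The background beside each count is the share of all genes tested that passed the threshold in that direction. The most abundant gene of a list is named by its mean over all 13 mice, and in the pan-macrophage, recruited monocyte, lipid-associated macrophage, neutrophil, sinusoidal endothelial, dendritic cell and lymphocyte lists another gene had the highest mean in at least 1 of the 3 groups. All 8 recruited monocyte genes rose in miR-Ctrl livers (7 to 8 without 1 mouse, background 19.1%), with a median log2 fold change of 3.40, while with the inhibitor 7 of 8 rose, at a median of 2.94 (background 13.1%). Plac8 was the most abundant over all mice, and in miR-Ctrl livers the largest changes were 5.50 for Chil3 (adjusted p = 0.00122) and 3.92 for F13a1 (adjusted p = 0.00309). The sum of the 8 genes ran from 8.14 to 27.3 normalized counts in no BDL, from 79.1 to 135 in miR-Ctrl livers and from 49.8 to 119 in anti-miR-873-5p livers. Of 8 lipid-associated macrophage genes, 7 rose in each BDL group against no BDL (background 19.1% and 13.1%), led by Gpnmb (6.06) and Mmp12 (4.36) in miR-Ctrl livers, while Fabp5, the most abundant over all mice through its no BDL level, had a log2 fold change of -1.84 (adjusted p = 0.0810).

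Neutrophil genes, summed over 9 genes with S100a9 the most abundant over all mice, ran from 8.58 to 23.0 normalized counts in no BDL and reached 264.5 in miR-Ctrl mouse 3, against 24.3 to 80.8 in the other 3 mice of that group. S100a9 itself averaged 1.09 ± 1.89 (SD, n = 5) in no BDL and had 103 in miR-Ctrl mouse 3. Of the 4 neutrophil genes tested against no BDL, 3 rose in each BDL group (background 19.1% and 13.1%), with S100a9 at 5.02 (adjusted p = 0.00714) in miR-Ctrl livers. Without mouse 1 of either BDL group the count there was 5, as each fit was filtered anew and could test more than 4 genes. With the inhibitor it was 0 without any 1 of no BDL mice 1 to 4 or anti-miR-873-5p mouse 4, and 1 without anti-miR-873-5p mouse 3. The sum of 9 sinusoidal endothelial genes, led over all mice by Stab1, ran from 163 to 251 in no BDL, from 57.8 in miR-Ctrl mouse 3 to 208 in miR-Ctrl mouse 2, and from 107 in anti-miR-873-5p mouse 2 to 220.1 in mouse 4 of that group. Of 10 such genes tested, 1 fell in miR-Ctrl livers, Oit3 by 1.22 (adjusted p = 0.0184), against a background of 16.6% lower, and 3 fell without miR-Ctrl mouse 3. With the inhibitor 2 fell, against a background of 8.44%, but 1 without no BDL mouse 4 or 5 and 0 without any 1 of no BDL mice 1 to 3 or anti-miR-873-5p mice 3 and 4.

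Hepatocyte genes, summed over 7 genes and led by Alb, ran from 98560 to 118500 normalized counts in no BDL, from 44730 to 77320 in miR-Ctrl livers and from 39070 to 85500 in anti-miR-873-5p livers. Of 8 hepatocyte genes 5 fell in miR-Ctrl livers, among them Cyp2e1 by 3.11 (adjusted p = 0.000130) and Ttr by 2.14 (adjusted p = 0.000212), and 2 fell with the inhibitor (4 without anti-miR-873-5p mouse 2), against 16.6% and 8.44% of all genes lower. The sign for 4 of the 8, Alb among them, was negative here but positive with library size alone as the scaling. The sum of 4 stellate cell and myofibroblast genes, led by Col3a1, ran from 43.0 to 82.3 in no BDL and from 137 to 488 in miR-Ctrl livers. In anti-miR-873-5p livers it was 76.6 in mouse 2 and 385 or more in the other 3. Of these genes 4 of 6 rose in miR-Ctrl livers, led by Col1a1 at 3.59 (adjusted p = 0.000236), but 2 without no BDL mouse 4 or miR-Ctrl mouse 1 or 2, and with the inhibitor 3 of 6 (5 without anti-miR-873-5p mouse 2), against 19.1% and 13.1% of all genes higher.

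All 5 cholangiocyte genes rose in each BDL group (3 with the inhibitor without anti-miR-873-5p mouse 3, background 19.1% and 13.1%), with Sox9 the most abundant and log2 fold changes in miR-Ctrl livers of 3.24 for Krt7 (adjusted p = 0.000102) and 3.19 for Krt19 (adjusted p = 0.000130). Dendritic cell genes stayed low, at sums from 4.08 to 12 normalized counts over all mice, among which Clec9a had the highest mean, and 0 of 3 tested were past the threshold in either BDL group (1 with the inhibitor without anti-miR-873-5p mouse 2). Lymphocyte genes had sums from 0.683 to 10.3, with Cd4 the most abundant over all mice, and of the 2 tested in miR-Ctrl livers, 1 fell (background 16.6%), Cd4 by 2.79 (adjusted p = 0.00139), against 2 without miR-Ctrl mouse 1, 2, 3 or 4. In none of these lists was a summed gene at 0 in all 13 mice. The part of these cell types in the levels of the 10 genes was not tested.

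**Figure D4:**
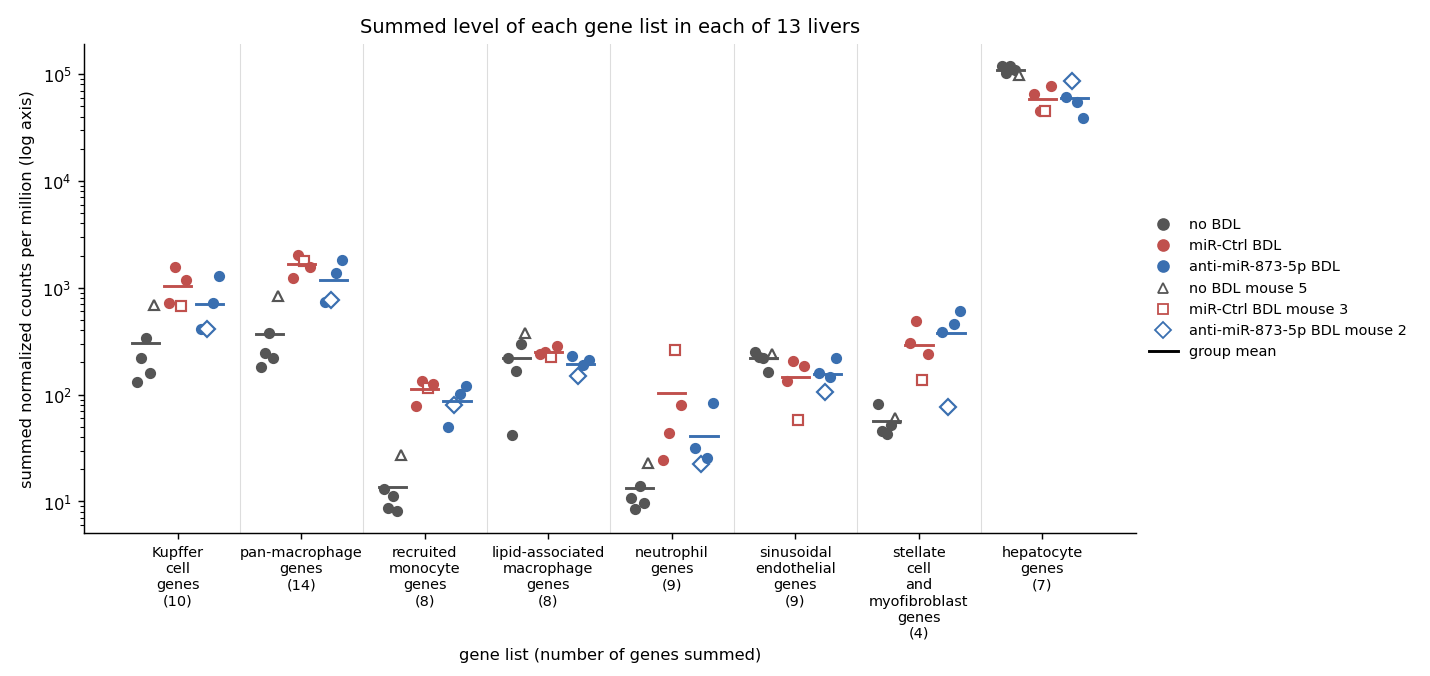
Summed normalized counts (CPM, log axis) of the Kupffer cell genes and of 7 lists of markers in each of the 13 livers, with the number of genes summed below each list, horizontal lines for group means and open symbols as in the plot of levels. MiR-Ctrl BDL mouse 3 is highest for neutrophil genes (264.5) and lowest for sinusoidal endothelial genes (57.8), and anti-miR-873-5p BDL mouse 2 is lowest of the BDL mice for stellate cell and myofibroblast genes (76.6).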

How the data were processed

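Liver RNA of 13 mice was made into libraries with the unstranded TruSeq RNA v2 kit and read as single reads of 50 nt. The authors mapped reads to mm10 with TopHat, and the submitters' processing notes also name CASAVA 1.8.2, FastQC, Trim Galore and DESeq2. The files the authors deposited give raw counts for each Entrez gene, 1 table for each comparison. The counting program and its annotation are not given in the sources used here. All value columns were used (0 left out). Mice were grouped by their labels. Nothing says whether the mice of a group were housed or processed together, so a batch shared by a group cannot be told apart from the group. The p-values measure the spread between these mice only.

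Genes were filtered with filterByExpr, scaled by TMM and compared by edgeR's quasi-likelihood test (edgeR 4.0.16, limma 3.58.1, R 4.3.3) within each table, with Benjamini-Hochberg adjustment over all genes tested and a threshold of 0.05. Each standard error (SE) is the size of the log2 fold change over the root of F, and 95% intervals use the t distribution that gives the fitted p. On simulated counts with 200 changed genes the test was checked to recover known changes. Far more genes passed the threshold against no BDL, so the check does not cover the setting of those comparisons. DESeq2 1.42.0 was an alternative, beside other scalings and filters, all 3 groups in 1 fit, a replicate block and leaving out each mouse. Levels use the 22246 genes with identical counts in all tables, so Fcgr2b, Des, Acta2 and Cps1 are left out of sums, and Ly6g had no row. RefSeq gave names, coordinates and promoters (GRCm38.p6, the build family of mm10) and GENCODE M21 the exon lengths and 3′ UTRs. Read in the sense direction only, none of the 50-base windows of the 10 genes' transcripts occurs in a transcript of another gene, except 0.073% for Cd163, which does not cover genes on the opposite strand. The genes and lists were chosen with earlier results of these data known. Named were the 10 genes, any gene of the identity, CSF1 axis and niche lists, and of every other list the most abundant gene (mean over all mice) and up to 2 with the largest absolute log2 fold change past the threshold in miR-Ctrl BDL. The 5 genes most like Clec4f and Csf1r were named by Pearson correlation of log2 normalized counts (prior count 2). Some results for single genes of the lists are not reported here. Chosen after seeing the data were the fits without 2 libraries, the sum without Cd14 and the correlations centred by group.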

Additional observations from a re-analysis of the deposited data

Results flagged for a closer look

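By Dixon's test at the 95% level, 3 of 60 groups of 4 or 5 mice held a mouse far from the others, and chance alone is expected to give about 1 in 20. Adgre1 had 28.2 normalized counts in no BDL mouse 5, against 10.8 in the next mouse of that group. Cd163 stood at 3.85 per 100 normalized counts of the pan-macrophage genes in anti-miR-873-5p BDL mouse 2, against 1.14 in the next mouse. Folr2 stood at 0.410 per 100 in miR-Ctrl BDL mouse 3, against 1.6 in the next lowest mouse of its group. What sets these mice apart was not tested.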

How the results depend on the processing

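In miR-Ctrl BDL versus no BDL, the 5 Kupffer cell genes past the threshold became 10 with library size alone as the scaling, 9 without both no BDL mouse 5 and miR-Ctrl mouse 3, and 2 to 9 when 1 mouse was left out. All genes past the threshold, 4666, became 9635 with library size alone, 3156 higher and 2908 lower without both mice, and 3775 to 5710.0 without 1 mouse. With the inhibitor, the 1 gene became 9 with library size alone, 4 with the 20 genes of most counts kept out of library sizes, 0 with DESeq2's size factors, 3 with DESeq2's Wald test, 6 with the replicate block, 7 without both no BDL mouse 5 and anti-miR-873-5p mouse 2, and 0 to 6 without 1 mouse. All genes past the threshold there, 2823, became 10190.0, 4745 with the 20 genes kept out, 4819 without both mice, and 1261 to 4317. Between the BDL groups, 0 became 30 with DESeq2's Wald test and 0 to 1 without 1 mouse. Library size alone moved the median of all log2 fold changes to 0.791 and 0.817 in the comparisons with no BDL, and keeping out the 20 genes moved it to 0.346 and 0.338. The cause of these changes was not tested. No BDL mouse 5 was chosen for the fits without 2 libraries by its levels of the 10 genes, so those fits show dependence on single mice only.

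Between the BDL groups, log2 fold changes without 1 mouse ran from -0.68 to 0.021 for Adgre1, -0.73 to 0.017 for Clec4f, -0.37 to 0.19 for Csf1r and -0.45 to 0.065 for Mrc1, and the replicate block gave 0.10 for Csf1r and 0.12 for Mrc1. Against no BDL, with 1 mouse left out, it ran from -0.22 to 0.23 for Mrc1 and -0.26 to 0.97 for Timd4 with the inhibitor, and from -0.044 to 0.39 for Mrc1 in miR-Ctrl BDL. Same-numbered mice correlated in their deviations between -0.198 and 0.349. Mice of different numbers were not set beside them, so these values cannot decide whether mouse numbers pair the groups. The replicate block took the miR-Ctrl BDL count to 7 and the count with the inhibitor to 6. Precision was limited by the 3 to 5 mice a group, and for Timd4 by as few as 18 reads in a mouse.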
